A study of Sus scrofa with 8 samples.

Results

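MiRNAs that textbooks tie to skeletal and cardiac muscle, liver, neural tissue, pancreas and epithelium were read in the pig's corpus luteum, the ovarian gland that secretes progesterone. They were taken by name, and the names were chosen with earlier results of these data known. Included was every non-control entry of the array named miR-1, miR-133, miR-206, miR-208 or miR-499 (muscle), miR-122 (liver), miR-9, miR-124, miR-137, miR-138 or miR-219 (neural), miR-7, miR-216, miR-217 or miR-375 (pancreatic) or miR-141, miR-200, miR-203, miR-205 or miR-429 (epithelial), with any letter or arm suffix. This gave 45 of the 686 entries, 21 with porcine, 17 with human and 7 with mouse names. Luteal tissue was collected on day 14 from crossbred gilts 6 to 8 months old of a single commercial herd, either on day 14 of the estrous cycle without insemination (cyclic, 4 arrays) or on day 14 of pregnancy after insemination 12 and 24 hours after the second estrus was detected (pregnant, 4 arrays). Each array, a 1-colour Agilent miRNA array, carried the total RNA of 1 sample, which the labels call a biological replicate. No other treatment or genotype is given in the labels.

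MiRNAs are short RNAs that pair through a seed at their 5′ end with messenger RNAs and lower their stability or translation, and a few of them are made almost only in 1 tissue. miR-1, miR-133 and miR-206 act in muscle differentiation, and miR-208 and miR-499 are carried by myosin heavy chain genes. miR-122 is the dominant miRNA of hepatocytes, miR-9 and miR-124 shape neurons, miR-375 marks endocrine islets, and the miR-200 family with miR-141 holds cells in an epithelial state by repressing ZEB1 and ZEB2. In the porcine RefSeq annotation (Sscrofa11.1), used here for neighbours alone, all 21 porcine entries matched a miRNA gene by name. MIR1 lies beside MIR133A-1 and MIR206 beside MIR133B, MIR208B lies within MYH7 and MIR499 within MYH7B, and MIR216-1 and MIR217-1 lie side by side within CCDC85A. Mature sequences and probe sequences were not used here.

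Most of these miRNAs gave no signal above background in luteal tissue. Detection of an entry required that the scanner software put 0.5 or more of the spots of its probe well above background. By this rule 38 of the 45 entries were detected on 0 arrays (84.4%, against 65.0% of all 686 entries), and 6 were detected on at least 4 arrays (13.3%, against 30.8%). hsa-miR-141-3p was the 1 entry detected on all 8 arrays (2.22%, against 24.2%). The 7 entries detected on any array (against 35.0% of all entries) were hsa-miR-141-3p and hsa-miR-203a-3p (epithelial), ssc-miR-499-5p and hsa-miR-208a-5p (muscle), hsa-miR-219a-5p and mmu-miR-138-5p (neural) and hsa-miR-7-1-3p (pancreatic), while both liver entries stayed at background. No difference between these shares was tested. In bulk tissue, fewer cells of a type and less RNA per cell cannot be told apart.

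Of the 7 detected entries 5 bore human names, 1 a mouse name and 1 a porcine name. Counted by detection on at least 4 arrays, this was 1 of the 21 porcine members against 162 of 407 porcine entries of the whole array, 4 of 17 human ones against 34 of 222, and 1 of 7 mouse ones against 10 of 49.

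As the scale of background, the negative control spots had a mean intensity of 0.400 to 1.33 per array (arbitrary scanner units) and an SD between single spots of 1.45 to 1.96. The limit of detection, taken as the 1st percentile among the probes detected on an array, was an intensity of 9.13 to 12.2. The distance of an entry from background is given below in SDs of single negative control spots and as a fold over this limit. The intensity of an entry is the mean over the 5 to 10 spots of its brightest probe, without outlier spots. Levels of different probes are not compared with each other.

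The array read luteal tissue as follows. The array's 75th percentile intensity over entries detected on all arrays was 189 to 316, 22.8% to 28.8% of spots were well above background, and 0 were saturated. The endothelial ssc-miR-126-3p gave 1161 to 2046, the pericyte and smooth muscle ssc-miR-143-3p 233 to 397, the fibroblast ssc-miR-199a-5p 241 to 631, the leukocyte hsa-miR-223-3p 25.6 to 1056 and the erythroid ssc-miR-451 237 to 1694. All 5 were detected on all 8 arrays, as were ssc-miR-202-3p, a miRNA enriched in gonads (33.4 to 137.2), and ssc-miR-182 of the miR-183 cluster (21.6 to 47.4). In these lists 2 of 2 endothelial, 4 of 4 smooth muscle, 5 of 6 fibroblast, 6 of 11 leukocyte, 1 of 4 erythroid, 2 of 2 gonad-enriched and 2 of 5 miR-183 cluster entries were detected on at least 4 arrays.

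**Figure D1:**
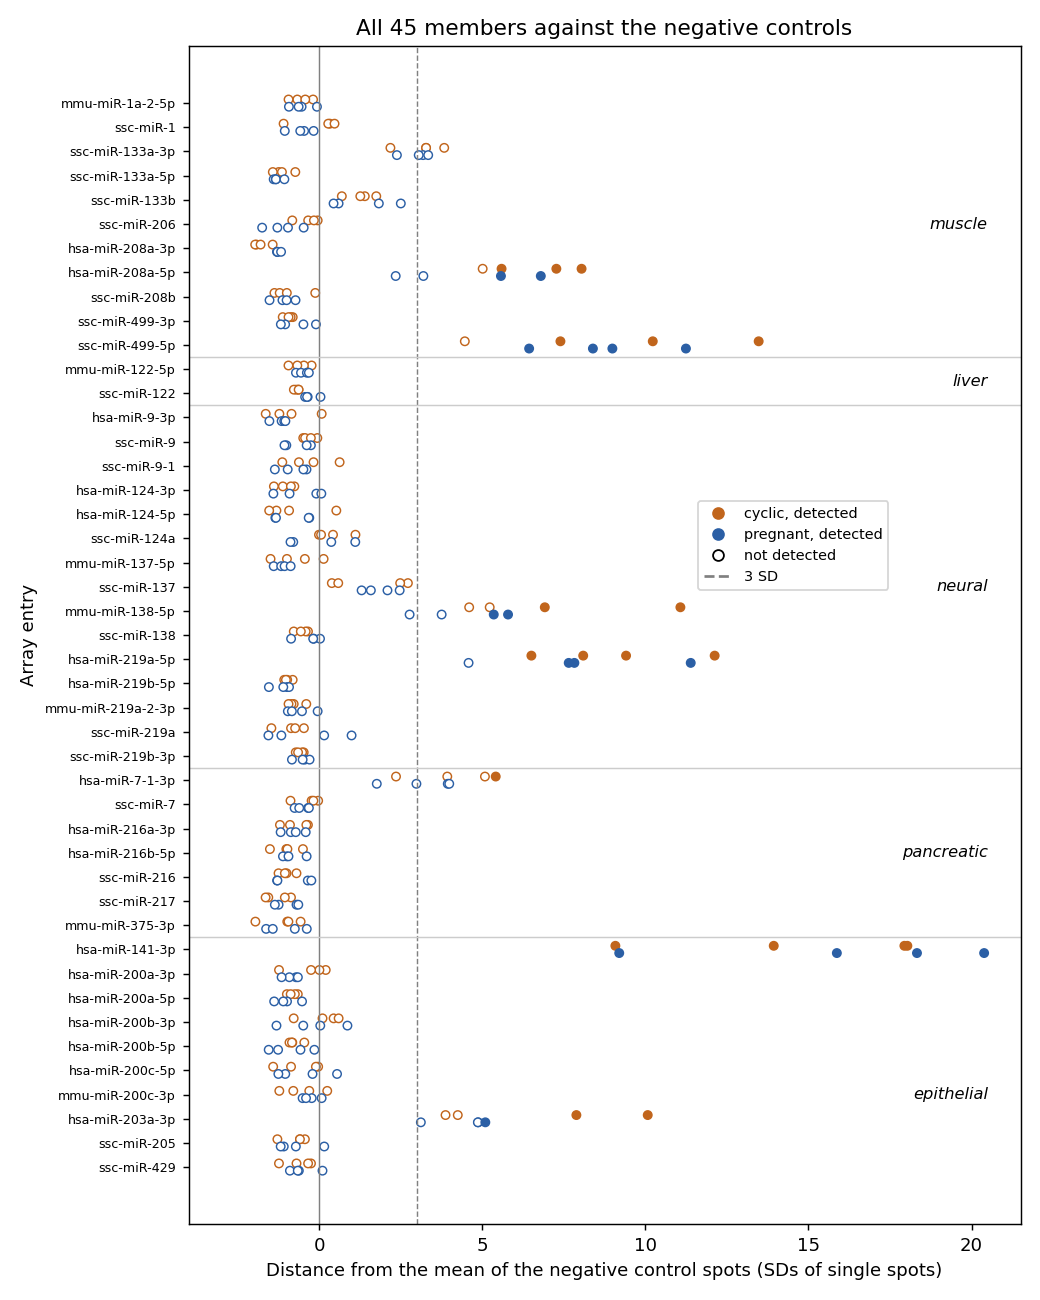
Each of the 45 entries (vertical axis, ordered by tissue class) with its distance from the mean of the negative control spots in SDs of single spots (horizontal axis), 1 point per array, filled where detected; the dashed line marks 3 SDs. The entries cluster around 0, and hsa-miR-141-3p reaches 9.08 to 20.4 SDs.

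Among the muscle miRNAs, 2 of 11 entries were detected. ssc-miR-499-5p, made from the MYH7B intron and known from slow muscle and heart, read 13.2, 20.8, 9.03 and 27.0 on cyclic replicates 1 to 4 and 15.7, 16.9, 17.5 and 12.8 on pregnant replicates 1 to 4. It was detected on 7 arrays, all but cyclic replicate 3, at a median of 8.69 SDs and 1.70-fold the limit. The cyclic arrays held both its highest and its lowest values, and the pregnant arrays lay between them. Its other strand, ssc-miR-499-3p, was detected on 0 arrays and read −1.41 to 0.239.

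hsa-miR-208a-5p, the passenger strand of a heart miRNA, read 9.10, 15.0, 11.1 and 16.5 on cyclic replicates 1 to 4 and 9.90, 10.4, 7.49 and 5.16 on pregnant replicates 1 to 4. It was detected on cyclic replicates 2, 3 and 4 and pregnant replicates 1 and 2, at a median of 5.58 SDs and 1.10-fold the limit over the 8 arrays. The groups overlapped. The guide strand of the same hairpin, hsa-miR-208a-3p, was detected on 0 arrays and read −2.99 to −1.13, and ssc-miR-208b, from the MYH7 locus, read −2.19 to 0.351.

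The miRNAs of skeletal muscle proper were at or close to background. ssc-miR-1 read −1.39 to 1.97, ssc-miR-206 −1.91 to 0.753, mmu-miR-1a-2-5p −0.943 to 0.519 and ssc-miR-133a-5p −1.97 to −0.692. ssc-miR-133a-3p, which represses smooth muscle and proliferation genes in muscle cells, stood apart from them. It read 4.28, 7.20, 7.85 and 7.36 on cyclic replicates 1 to 4 and 5.83, 5.45, 7.22 and 5.23 on pregnant replicates 1 to 4, a median of 3.23 SDs. This was above the mean plus 3 SDs of the negative controls on 6 arrays, but the entry did not reach the rule for detection on any array. The scanner software's own flag called it detected on 4 arrays. ssc-miR-133b, the partner of miR-206, read 1.61 to 4.24, a median of 1.33 SDs.

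For the liver, ssc-miR-122 read −0.769 to 0.657 and mmu-miR-122-5p −1.05 to 0.611, both within 1 SD of the negative control mean on every array. The summed positive intensity of both entries was 0 to 0.341 on the cyclic arrays and 0 to 1.27 on the pregnant ones.

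Among the neural miRNAs, 2 of 15 entries were detected. hsa-miR-219a-5p, known for its role in oligodendrocyte maturation, read 14.4, 24.5, 12.8 and 19.1 on cyclic replicates 1 to 4 and 13.4, 17.1, 16.4 and 9.33 on pregnant replicates 1 to 4. It was detected on 7 arrays, all but pregnant replicate 4, at a median of 7.96 SDs and 1.59-fold the limit. The groups overlapped, with the lowest value on a pregnant and the highest on a cyclic array. The porcine entry of that name, ssc-miR-219a, with 4 probes, was detected on 0 arrays and read −1.75 to 2.05. The other entries of the family were also detected on 0 arrays, with hsa-miR-219b-5p at −1.61 to −0.445, mmu-miR-219a-2-3p at −0.868 to 0.327 and ssc-miR-219b-3p at −0.609 to 0.192.

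mmu-miR-138-5p, which restrains growth of dendritic spines, read 8.40, 11.0, 13.6 and 22.3 on cyclic replicates 1 to 4 and 9.52, 8.99, 8.57 and 5.96 on pregnant replicates 1 to 4. It was detected on cyclic replicates 3 and 4 and pregnant replicates 1 and 2, at a median of 5.29 SDs and 0.947-fold the limit over the 8 arrays. Cyclic replicates 2, 3 and 4 lay above all pregnant arrays and cyclic replicate 1 below pregnant replicates 1, 2 and 3. The porcine entry ssc-miR-138 was detected on 0 arrays and read −0.820 to 0.984. Thus for miR-138, as for miR-219a, the entry named for another species was detected and the porcine entry was not, and whether the entries carry the same mature sequence was not tested.

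The neuronal miRNAs miR-9 and miR-124 were at background in all 6 of their entries. ssc-miR-9 read −1.31 to 0.573, ssc-miR-9-1 −1.37 to 2.27 and hsa-miR-9-3p −2.24 to 1.21. For miR-124, hsa-miR-124-3p read −1.61 to 0.911, hsa-miR-124-5p −1.88 to 1.82 and ssc-miR-124a −0.853 to 2.97. ssc-miR-137, a regulator of neuronal maturation, read 1.41 to 5.65 with a median of 1.84 SDs and was not detected, and mmu-miR-137-5p read −1.99 to 1.06.

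Among the pancreatic miRNAs, 1 of 7 entries was detected. hsa-miR-7-1-3p, the passenger strand of an islet and neuroendocrine miRNA, was detected on cyclic replicate 4 alone, at 11.5. On cyclic replicates 1 to 3 it read 7.25, 10.74 and 5.09, and on pregnant replicates 1 to 4 it read 7.12, 6.38, 7.08 and 4.08. It was therefore not tested. The median of hsa-miR-7-1-3p was 3.94 SDs and 0.735-fold the limit. It lay above the mean plus 3 SDs of the negative controls on 5 arrays. The scanner software's own flag called it detected on 6 arrays. The entry ssc-miR-7 read −0.925 to 0.722, the islet miRNA mmu-miR-375-3p −2.70 to −0.241, and the acinar miRNAs ssc-miR-216 −1.60 to 0.271 and ssc-miR-217 −2.39 to −0.387. The entries hsa-miR-216a-3p (−1.25 to 0.120) and hsa-miR-216b-5p (−2.16 to 0.0616) were also detected on 0 arrays.

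Among the epithelial miRNAs, 2 of 10 entries were detected. hsa-miR-141-3p, a repressor of the ZEB factors, read 31.3, 35.9, 17.7 and 27.8 on cyclic replicates 1 to 4 and 31.6, 30.1, 31.9 and 18.0 on pregnant replicates 1 to 4. All spots of its brightest probe were well above background on every array, at a median of 16.9 SDs and 3.02-fold the limit (1.66 to 3.40). Its second probe read 6.56 to 14.2, with a median of 11.9, and was detected on 6 arrays. On the brightest probe, cyclic replicate 3 and pregnant replicate 4 were low, and these were also the arrays with the lowest 75th percentile (193 and 189). The groups overlapped.

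The relatives of miR-141 were not detected. miR-200c, whose gene sits beside that of miR-141 in mammalian genomes, read −1.60 to 1.48 for mmu-miR-200c-3p and −1.85 to 1.34 for hsa-miR-200c-5p. The other locus of the family was likewise at background, with hsa-miR-200b-3p at −1.28 to 2.21, hsa-miR-200a-3p at −1.54 to 1.19 and ssc-miR-429 at −1.62 to 0.580. The passenger strands hsa-miR-200a-5p (−1.32 to −0.193) and hsa-miR-200b-5p (−2.10 to 0.156) and the basal epithelial ssc-miR-205 (−1.71 to 0.842) completed the undetected entries.

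hsa-miR-203a-3p, which drives keratinocytes out of the cell cycle, read 7.16, 16.2, 8.63 and 20.4 on cyclic replicates 1 to 4 and 8.71, 7.65, 11.2 and 6.60 on pregnant replicates 1 to 4. It was detected on cyclic replicates 2 and 4 and pregnant replicates 1 and 3, at a median of 4.87 SDs and 0.906-fold the limit over the 8 arrays. Cyclic replicates 2 and 4 were high, and the other cyclic arrays lay among the pregnant ones.

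**Figure D2:**
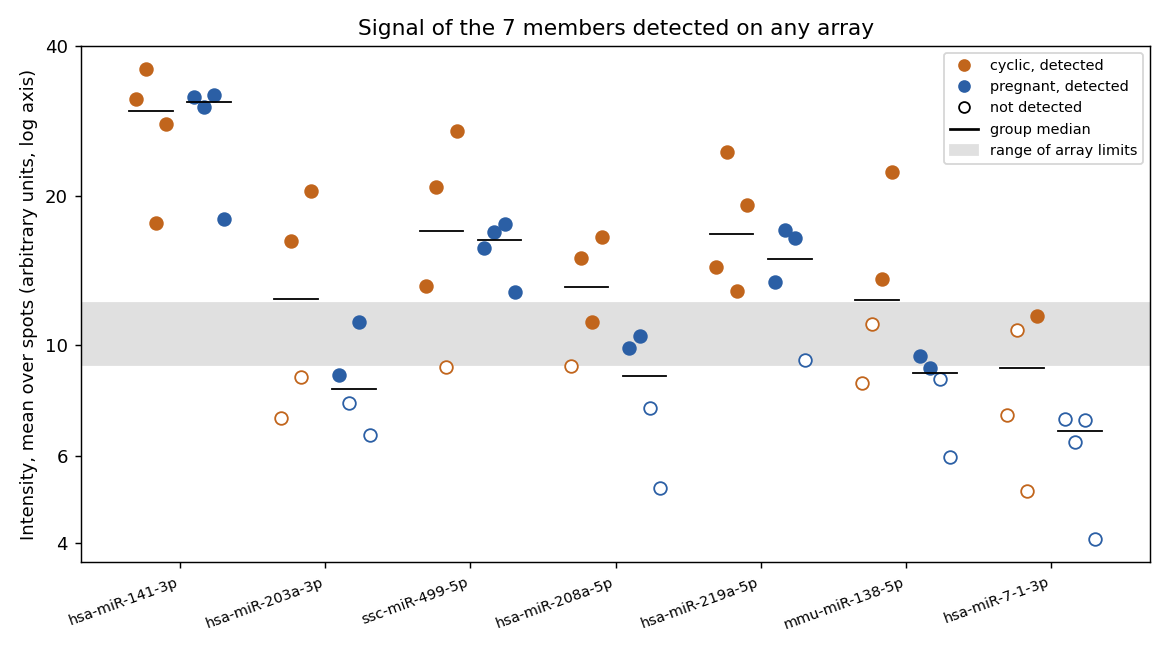
Mean spot intensity (vertical axis, arbitrary units, log scale) of the 7 entries detected on any array, 1 point per array in replicate order within each group, filled where detected; bars are group medians and the grey band spans the limits of the 8 arrays (9.13 to 12.2). All points of hsa-miR-141-3p lie above the band, and those of the other entries reach into or below it.

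Over the 38 entries never detected, the 304 array values ran from −2.99 to 7.85 with a median of −0.470. Of these values 66.8% were below 0 and 95.7% lay within 2 SDs of the negative control mean. All array values lay within 2 SDs for 35 of the 38 entries, and the median exceeded 2 SDs in 1, ssc-miR-133a-3p. These are SDs of single spots, a wide measure for values that are means over spots. Besides ssc-miR-133a-3p, ssc-miR-137 (0.39 to 2.72 SDs) and ssc-miR-133b (0.45 to 2.51 SDs) lay above the negative control mean on every array.

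Each of the 7 detected entries had a second probe. The second probe was detected on 6 arrays for hsa-miR-141-3p and ssc-miR-499-5p, 5 for hsa-miR-219a-5p, 4 for hsa-miR-208a-5p, 3 for mmu-miR-138-5p, 1 for hsa-miR-203a-3p and 0 for hsa-miR-7-1-3p. Spots of the brightest probe varied among themselves with a median coefficient of variation of 9.25% for hsa-miR-141-3p and 13.9% to 22.8% for the other 6. How many members were detected on all 8 arrays depended on the rule, as 3 met the scanner software's flag and 4 exceeded the mean plus 3 SDs of the negative controls. For all 686 entries this count is given here by the main rule alone (24.2%). When every spot of the probe had to be well above background, 3 entries in place of 6 were detected on at least 4 arrays (6.67% of the members, against 28.4% of all entries). By the scanner software's flag and by the mean plus 3 SDs 8 members were (17.8%), against 35.1% and 35.0% of all entries.

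The first comparison asked whether more of these miRNAs were detected in 1 of the groups. The number detected per array was 3, 5, 4 and 7 on cyclic replicates 1 to 4 and 6, 5, 4 and 2 on pregnant replicates 1 to 4. The means were 4.75 ± 1.71 and 4.25 ± 1.71 (SD, n = 4 per group), and the difference of −0.5 was within the spread between arrays (exact permutation test, 2-sided, p = 0.8286, where the smallest p this design allows is 0.0286). Without cyclic replicate 4 or without pregnant replicate 4 the difference was 0.25. Cyclic replicate 4, with the most members, had the highest 75th percentile (316) and the most entries detected in all (223), and pregnant replicate 4, with the fewest members, had the lowest (189 and 181). The part of array brightness in the members' detection was not tested.

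**Figure D3:**
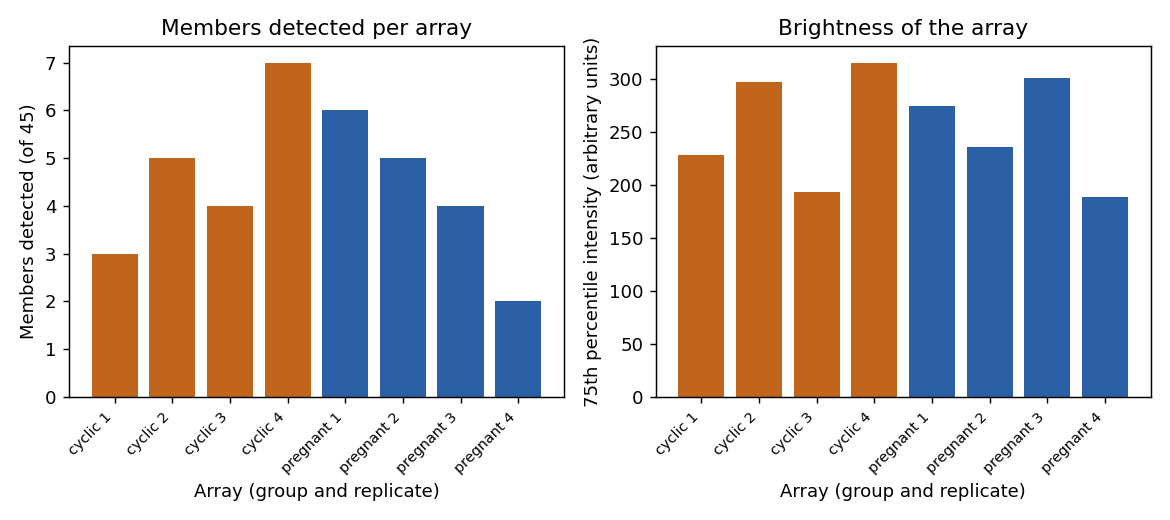
Left, number of the 45 entries detected (vertical axis) on each array (horizontal axis, group and replicate); right, the array's 75th percentile intensity (arbitrary units). The count runs from 2 on pregnant replicate 4 to 7 on cyclic replicate 4, the arrays with the lowest and the highest 75th percentile.

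The second comparison asked whether the level of the detected members differed between pregnancy and the late cycle. Intensities were divided by the array's 75th percentile, values under a floor were set to it, and log2 was taken. The 6 members detected on at least 4 arrays were tested with limma among the 211 entries that passed this filter, with Benjamini-Hochberg adjustment over all 211. Of the 6, 0 passed at an adjusted p of 0.05, against 24 of the 211 (11.4%; 11 higher and 13 lower), and 3 had an unadjusted p under 0.05, against 34.6% of the 211. The groups did not overlap in 0 of the 6, against 17.1%. The differences were below 0 in 4 of 6, against 49.3%, and the median was −0.35, against 0.01 over all entries tested. The split of all calls moved with the scaling, to 55 higher and 7 lower with the 75th percentile over all probes, which raised the median of all entries to 0.31, to 14 and 9 with quantile normalization and to 3 and 6 with no scaling. Among the 6 members 0 passed in any of these 3 settings.

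The 2 members closest to an equal level were hsa-miR-141-3p and ssc-miR-499-5p. The scaled log2 signal of hsa-miR-141-3p averaged −3.22 ± 0.31 in the cycle and −3.18 ± 0.18 in pregnancy (SD, n = 4), a difference of 0.04 ± 0.19 (SE), whose 95% confidence interval of −0.38 to 0.45 spans 0.771-fold to 1.37-fold (limma, adjusted p = 0.938). That of ssc-miR-499-5p averaged −3.98 ± 0.37 and −3.98 ± 0.16. Its difference was 0.00068 ± 0.20, with an interval of −0.44 to 0.44 (adjusted p = 0.997).

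The other 4 members had negative differences that did not pass the test. hsa-miR-219a-5p differed by −0.28 ± 0.18 (adjusted p = 0.300; 0.02 with scaling over all probes), hsa-miR-208a-5p by −0.42 ± 0.17 (adjusted p = 0.118), hsa-miR-203a-3p by −0.45 ± 0.19 (adjusted p = 0.134) and mmu-miR-138-5p by −0.53 ± 0.24 (adjusted p = 0.142). The last 3 were at the floor on 2, 3 and 2 arrays, so the floor limits both their differences and their SEs. With no floor the differences were −0.62 for hsa-miR-208a-5p, −0.47 for hsa-miR-203a-3p and −0.63 for mmu-miR-138-5p. None of the 3 passed there (limma, adjusted p = 0.102, 0.180 and 0.138). The size of these 3 differences depended on the processing: with normexp background correction they were −0.05 for hsa-miR-208a-5p, −0.09 for hsa-miR-203a-3p and −0.07 for mmu-miR-138-5p, and with the total gene signal −1.003, −0.95 and −1.06, and none of the 3 passed in either setting. Their second probes, scaled in the same way, differed by −0.27 for hsa-miR-208a-5p, −0.05 for hsa-miR-203a-3p, −0.41 for mmu-miR-138-5p and −0.22 for hsa-miR-219a-5p.

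Pregnant replicates 1 and 2 shared slide 1, cyclic replicates 1 and 2 slide 2, and replicates 3 and 4 of both groups slide 3, so slide 3 is the 1 slide with both groups and a fit with slide as a block gives its contrast. In that fit mmu-miR-138-5p passed, 1 of the 6 members, where 27 of the 211 entries passed. On slide 3 alone, which is the same contrast and no further support, it also passed, where 29 entries passed in all. Cyclic replicates 3 and 4 stood at −3.83 and −3.82 and both pregnant arrays of the slide at the floor of −4.85, a difference of −1.03 (limma, adjusted p = 0.0154 with slide as a block and 0.0255 on slide 3 alone). These pregnant arrays read 8.57 and 5.96, and neither was detected. Setting both to the floor removed the spread between them, so these p-values rest in part on the floor. The other 5 did not pass there, with differences of 0.16 for hsa-miR-141-3p, −0.58 for hsa-miR-203a-3p, −0.67 for hsa-miR-208a-5p, −0.29 for hsa-miR-219a-5p and −0.01 for ssc-miR-499-5p. Pregnant replicates 1 and 2 were scanned on a day of their own and all other arrays on another day. Scan day is thus partly confounded with group in the main fit. With scan day as a block, chosen after the data were seen, the contrast is that of pregnant replicates 3 and 4 against the cyclic arrays. In that fit 0 of the 6 passed, and mmu-miR-138-5p differed by −0.56 (limma, adjusted p = 0.322).

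Cyclic replicate 1 also bore on these calls. Without it, hsa-miR-203a-3p differed by −0.61 (adjusted p = 0.0135), hsa-miR-208a-5p by −0.52 (adjusted p = 0.0221) and mmu-miR-138-5p by −0.69 (adjusted p = 0.0281), and all 3 passed, in a fit where 81 of the 211 entries passed. Without any other array 0 of the 6 passed.

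**Figure D4:**
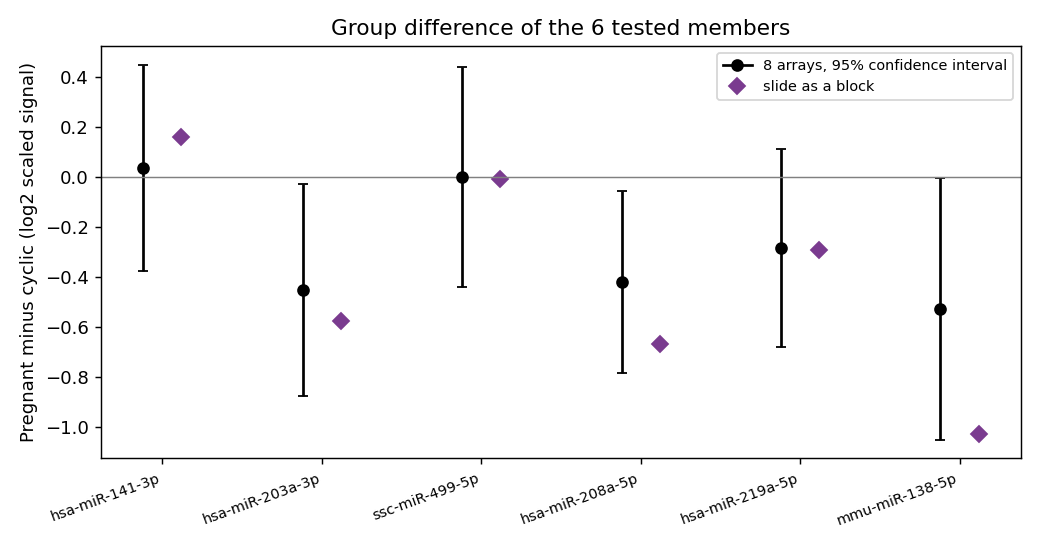
Difference in scaled log2 signal, pregnant minus cyclic (vertical axis), of the 6 tested entries; circles with bars are the fit on 8 arrays with its 95% confidence interval, diamonds the fit with slide as a block. The intervals of hsa-miR-141-3p and ssc-miR-499-5p are centred near 0, and the diamond of mmu-miR-138-5p lies at −1.03.

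The summed positive intensity of all entries of a class, with no scaling between arrays and negative values left out, overlapped between the groups in each of the 5 classes. It was 30.7 to 57.0 on the cyclic and 25.3 to 37.5 on the pregnant arrays for muscle, 28.5 to 49.1 and 19.5 to 34.7 for neural, 5.33 to 12.2 and 4.08 to 7.12 for pancreatic, and 27.9 to 55.7 and 24.6 to 46.0 for epithelial miRNAs. The liver sums are given above. Without scaling, array brightness enters all of these sums.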

How the data were processed

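The scanner files hold the intensity of every spot on a linear scale, background-subtracted by Agilent Feature Extraction (version 10.7.3.1 per the file headers, 10.7 per the submitters' processing notes). The authors' deposited value table, read from its values as log2 signal centred on 0 per spot, with 3 cells above 100 read as missing and those columns named a score, served as an alternative alone; its scaling between arrays stays unknown. Its rows were matched to spots by feature number, and over 2806 bright spots its values ran in the direction of the scanner's (r 0.878 to 0.974 with log2 intensity centred per spot). The cyclic columns, in replicate order, had medians of 0.0108, −0.00028, 0.00069, −0.00021, the pregnant columns −0.0003, 9.45e-05, −9.45e-05, 0.0318. Detection came from the deposited flags, given per spot by the scanner software as 0 or 1 and by other rules as alternatives.

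Control spots and spots marked as outliers (384 to 453 per array) were left out, spots were averaged per probe, and the probe with the highest mean over the arrays stood for an entry. Values were divided by the 75th percentile over entries detected on all arrays, floored at 0.0346 (log2 −4.85, the 1st percentile of detected probes) and compared with limma 3.58.1 (lmFit, eBayes with trend, 2-sided) in R 4.3.3. The labels state no test. With 4 arrays a group, their number sets the precision. The limma p-values set a group difference against the spread between samples. This spread is drawn toward the value that a trend over all entries tested gives at the entry's mean signal. The script was tested on simulated data. Python 3.11.15 with matplotlib 3.10.9 drew the figures.

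All members were named: those detected on any array, and ssc-miR-133a-3p, with every array's value, the others by range. Of each other cell type's list the entry with the highest mean signal was named. Members, lists and tests were chosen with earlier results of these data known.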

Additional observations from a re-analysis of the deposited data

Results flagged for a closer look

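In 4 of 30 sets of 4 arrays examined (7 entries in 2 groups on 2 scales, and the number detected in 2 groups), the gap between 1 array and the nearest other exceeded Dixon's critical share of the group's range; chance flags about 1 in 20. In pregnancy hsa-miR-141-3p read 18.0 on replicate 4 against 30.1 to 31.9 on the other 3 arrays (gap 0.897 of the range of log2 intensity), and that array also had the lowest 75th percentile. On the scaled log2 scale, 1 pregnant array lay above the rest for hsa-miR-203a-3p (replicate 3, −4.75 against −4.85 to −4.84, gap 0.831), for hsa-miR-208a-5p (replicate 2, −4.50 against −4.85 to −4.80, gap 0.839) and for mmu-miR-138-5p (replicate 2, −4.72 against −4.85, gap 0.990). In each of these 3 sets other arrays stood at the floor, which narrows the range.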

How the results depend on the processing

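Of the 6 tested entries, hsa-miR-203a-3p, hsa-miR-208a-5p and mmu-miR-138-5p kept their direction under all 23 alternatives run for each, and passed in 1, 1 and 3 of them. Their size did not hold: the differences ran from −0.95 to −0.085, −1.003 to −0.051 and −1.06 to −0.068, with the total gene signal giving the lowest and normexp the highest value of each. hsa-miR-141-3p, hsa-miR-219a-5p and ssc-miR-499-5p passed in 0 and changed sign in 5 of 24, 1 of 23 and 11 of 23. For ssc-miR-499-5p the value was −0.012 with normexp, −0.062 with no scaling, −0.085 with the total gene signal, −0.083 with the mean of detected probes, −0.0082 with slide as a block and on slide 3 alone, and −0.012 with scan day as a block (chosen, like leaving out the 2 dimmest arrays, after seeing the data). For hsa-miR-141-3p it was −0.0047 with no scaling and −0.10 with scan day as a block, and for hsa-miR-219a-5p 0.017 with the 75th percentile over all probes. Leaving out 1 array at a time gave −0.057 to 0.15 for hsa-miR-141-3p and −0.15 to 0.14 for ssc-miR-499-5p, 0 to 3 members that passed, 7 to 81 entries that passed (main count 24) and −1.08 to 0.25 in members detected per array, which was 0.25 with porcine entries alone.

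With slide as a block and on slide 3 alone 1 member, mmu-miR-138-5p, passed, with 27 and 29 entries passing in all. Both settings give the same contrast, and both are counted among the alternatives that this member passed. The count over all entries was 11 with normexp and with entries detected on at least 1 array, 62 with the 75th percentile over all probes, 9 with no scaling, 1 with no detection filter and 2 with scan day as a block. Deviations of arrays with the same replicate number correlated at −0.18 to 0.16, and so few pairs cannot exclude a pairing. Cyclic replicates 1 and 4 correlated most with the pregnant array of their own number, and cyclic replicates 2 and 3 with pregnant replicates 3 and 2. With a replicate block 27 entries and 0 members passed. The cause of these shifts was not tested. Some of the fits held fewer samples or more entries than the main one.

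Members detected on all 8 arrays were 3 with any 1 spot above background, 3 by the scanner flag, 4 by the mean plus 3 SDs, 0 among porcine entries and 3 without the 2 dimmest arrays (of 6). For all entries this count is given here by the main rule alone. With all spots required, 3 were detected on at least 4 arrays; of the porcine entries 1 was, and 20 were detected on 0. Against the mean plus 3 SDs the median log2 signal over the limit became 2.30 for hsa-miR-141-3p (1.60 in the main setting; 1.07 with the mean of its probes), 0.64 for hsa-miR-203a-3p (−0.14), 0.84 for hsa-miR-208a-5p (0.13), 1.31 for hsa-miR-219a-5p (0.67), 0.36 for hsa-miR-7-1-3p (−0.44), 0.76 for mmu-miR-138-5p (−0.08) and 1.41 for ssc-miR-499-5p (0.76). For the 6 detected members other than hsa-miR-141-3p, median signals of 0.735-fold to 1.70-fold the limit restrict what these arrays can resolve.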
